A study of Mus musculus with 35 samples.

Results

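This account concerns lung gene expression in mice that breathed styrene at 40 ppm, set against mice that breathed air alone. All were adult male CD-1 mice, an outbred stock, bought from Taconic, and each lung gave 1 array of whole-lung RNA. The 5 mice at 40 ppm and the 5 in air make up 10 of the 35 arrays of a concentration series, whose other groups of 5 breathed 1, 5, 10, 20 or 120 ppm. Mice stayed singly in wire-mesh cages during exposure and were killed with pentobarbital and exsanguination the next morning. The protocol gives one exposure of 6 hours and the titles give day 1, whereas the sample characteristics give 5 days, and the exposure length is therefore unsettled. The labels name no genotype and no treatment shared by all groups.

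All 17097 genes of the table with a usable name were tested. Each was read from the probe set that carried exactly 1 symbol and had the highest mean over the 35 arrays, out of 45037 probe sets in all. A level is a log2 expression value and a change is the mean at 40 ppm minus the mean in air, with its standard error (SE) from a limma model of all 7 groups. Genes were called higher (rose) or lower (fell) at a Benjamini-Hochberg adjusted p under 0.05 in that limma test. The arrays carried the markers of lung. Sftpc, the surfactant protein of alveolar type 2 cells, stood at 13.77 ± 0.05 (SD, n = 5) in air and 13.79 ± 0.02 at 40 ppm. Scgb1a1, the main secretory protein of club cells, stood at 13.73 ± 0.05 and 13.83 ± 0.01, and Ager, a marker of alveolar type 1 cells, at 13.59 ± 0.05 and 13.48 ± 0.03. None of these 3 genes was called (changes of 0.02 ± 0.048, 0.10 ± 0.052 and -0.11 ± 0.057), but other settings changed this for all 3. Ager was called lower with the mean of its probe sets (-0.16, limma adjusted p = 0.0056) and with a trended prior (limma adjusted p = 0.027). Scgb1a1 was called higher with a trended prior, without air mouse 5 and against 1 ppm in place of air (limma adjusted p = 0.020, 0.0498 and 0.036). In whole lung, fewer cells of a type and less RNA in each cell cannot be told apart.

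Styrene is a volatile solvent that enters through the airways. In the mouse lung it is oxidised by cytochrome P450 enzymes, chiefly in club cells, to styrene oxide and ring-oxidised products. Epoxide hydrolase and glutathione transferases remove the epoxide. The lung around these cells holds ciliated cells, thin and cuboidal alveolar cells, a dense capillary bed with its platelets and red cells, fibroblasts and resident macrophages, and the results below follow that order.

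The arrays of the groups stood apart as a whole. The first principal component carried 67.3% of the variance among arrays, and its score was -29.8 ± 12.6 (SD, n = 5) at 40 ppm and 110 ± 22.9 in air, with no overlap. The interquartile range of an array, the width of the middle part of its values, ran from 3.32 to 3.45 log2 at 40 ppm and from 2.94 to 3.16 in air. Both measures differed between these groups in exact permutation tests, 2-sided (p = 0.00794, the smallest that 252 arrangements allow, adjusted p = 0.0181 over 16 tests). Mice at 1 ppm lay with the air group on the first component, with a mean of 122.9. Those at 20 and 120 ppm lay with the 40 ppm group, at -22.4 and -48.7. Mice at 10 ppm scored from -58.7 to -20.1. Those at 5 ppm lay furthest from air, from -102.3 to -74.4, so the score did not follow the order of concentration. The component did not separate 40 from 20 ppm (exact p = 0.516) or from 120 ppm (exact p = 0.0873). Array correlations over all probe sets averaged 0.990 within the 40 ppm group, 0.981 within air, and 0.939 between them. The labels give neither array date nor batch, and any batch lying along the groups cannot be told apart from exposure.

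**Figure D1:**
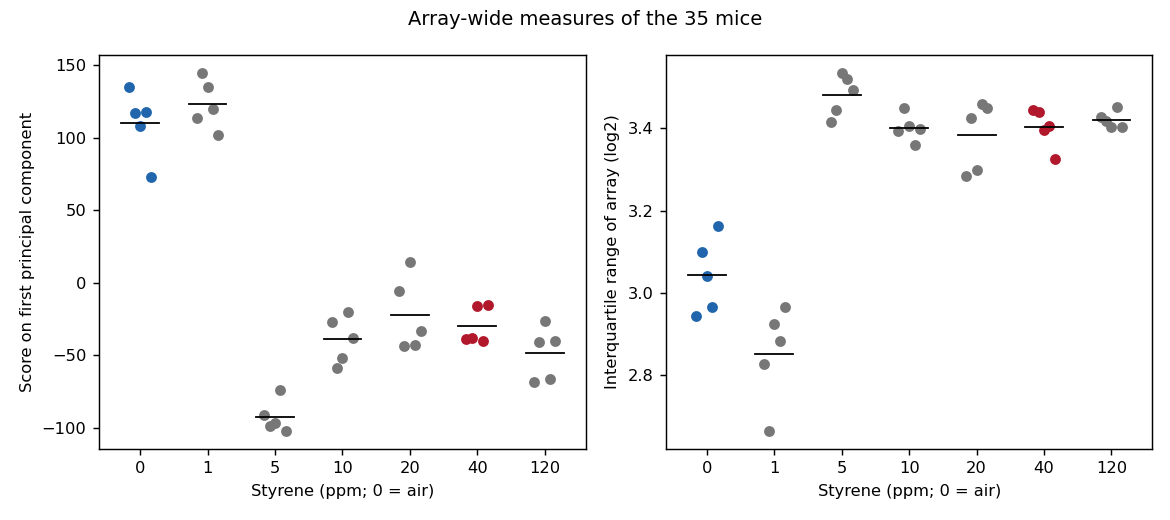
Score on the first principal component (left, no unit) and interquartile range in log2 units (right) of each of the 35 arrays, by styrene concentration. Points are mice, lines are means of 5. The 40 ppm mice (red) lie between -40.2 and -15.8 on the component, apart from the air mice (blue), which lie between 72.8 and 134.6.

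Because of that split, 3 other treatments of the arrays are quoted beside the results where they matter. The array axis is the largest single axis of the spread among mice of one group, and it carried 17.4% of that spread. It was used as a covariate, as was the interquartile range. The 40 ppm and air mice shared no range of either measure, so changes fitted with these covariates are extrapolated. Equal-spread scaling set every array to the same median and interquartile range. Under it the bright lung markers were called lower, Sftpc by -1.11, Scgb1a1 by -1.03 and Ager by -1.21.

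Most genes differed between 40 ppm and air. Of 17097 genes 11079 were called (64.8%), of which 4895 rose (28.6% of all genes) and 6184 fell (36.2%). The median change over all genes was -0.13. A test against a 2-fold change, limma's treat, passed 1183 genes (6.92%), 811 higher (4.74%) and 372 lower (2.18%). Without air mouse 1 it passed 771. In 8132 genes (47.6%) the 5 exposed mice did not overlap the 5 air mice. Adding the array axis left 5352 genes called and 3 past the 2-fold test, and adding the interquartile range left 4830 and 0. Counts in the lists below are to be read against these shares. Genes named from the lists were mostly picked among called members whose groups did not overlap, so that separation was set by the rule.

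Among genes whose groups did not overlap and whose higher group mean was at least 7 log2, the 12 largest rises ran from 2.23 to 2.52 log2. They were led by Drc3, a part of the regulatory complex of motile cilia. Its levels in air mice 1 to 5 were 5.10, 4.54, 4.72, 4.77 and 4.42, against 6.67, 7.39, 7.22, 7.88 and 6.99 at 40 ppm. The lowest exposed mouse thus lay more than 1 log2 unit above the highest air mouse, and the gene rose 5.74-fold (2.52 ± 0.239, limma adjusted p = 7.62e-11), though in 1 of its 2 probe sets. Chil4, a chitinase-like protein secreted in the airway, read 8.74, 9.68, 9.82, 9.22 and 9.51 in air and 11.73, 11.81, 11.61, 11.66 and 11.82 at 40 ppm. Its exposed mice were tightly grouped, all above all controls (5.03-fold; near-identical relatives such as Chil3 may share its probes). Rbl2, the p130 member of the retinoblastoma family that holds cells out of the cycle, went from 4.83, 5.12, 4.75, 4.58 and 6.24 to 7.28, 7.50, 7.44, 7.35 and 7.21. Air mouse 5 was the highest control here and again in Tspan2, a tetraspanin, where it read 6.88 beside 5.74 to 6.19 in the other controls and 8.25 to 8.77 at 40 ppm. Oxct1, which lets mitochondria use ketone bodies, rose by 2.23 ± 0.181 in all 4 of its probe sets, and Slu7, a splicing factor, by 2.31 ± 0.171 in 6 of 7.

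The others were Tdrd3, a reader of methylated arginine (2.34 ± 0.224), Copg2, a coat subunit of Golgi vesicles (2.33 ± 0.118), Itfg1 (2.27 ± 0.162), Uhmk1, a kinase of splicing factors (2.26 ± 0.186), Myof, a membrane repair protein (2.23 ± 0.164), and Insyn2a (2.33 ± 0.2). Insyn2a had 3 probe sets, of which 1 was called higher and 1 lower, so its direction depends on the probe set. In each of the 12 genes the means at 5, 10, 20 and 120 ppm lay above the highest air mouse, and the mean at 1 ppm did not. For Copg2 these means were 4.71 in air, 4.23 at 1 ppm, 6.98 at 5 ppm, 6.90 at 10 ppm, 7.10 at 20 ppm, 7.04 at 40 ppm and 7.18 at 120 ppm.

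By the same limits, the 12 largest falls ran from -1.89 to -2.31 log2 and held 3 parts of platelet receptors. Gp1bb, a subunit of the receptor for von Willebrand factor, read 7.70, 7.84, 8.10, 8.31 and 8.14 in air and 4.81, 5.68, 6.09, 6.01 and 5.94 at 40 ppm. Exposed mouse 1 was the lowest, and all 5 lay below all controls (4.96-fold lower, adjusted p = 1.87e-07 in limma). Itga2b, the platelet fibrinogen receptor chain, fell from 7.33, 7.51, 7.54, 7.43 and 7.40 to 4.88, 5.38, 5.60, 5.51 and 5.64, again lowest in mouse 1. Gp9, which pairs with Gp1bb, fell by 1.93 on the log2 scale (± 0.208). Pex16, which builds peroxisomes, had the smallest standard deviation of the 12 in each group (0.08 in air, 0.05 at 40 ppm). It read 8.51, 8.49, 8.64, 8.67 and 8.63 in air against 6.63, 6.67, 6.76, 6.70 and 6.72 at 40 ppm, a fall of 1.89 (± 0.164) in 2 of 3 probe sets. Junb, an AP-1 transcription factor induced within minutes by stress, read 9.18, 8.40, 7.95, 8.45 and 8.55 in air and 6.59, 6.54, 6.74, 6.58 and 6.64 at 40 ppm. Controls differed by over 1 log2 unit among themselves, and the exposed mice by little.

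Slc4a1, the anion exchanger of red cells, fell by 1.91 (± 0.373), from 6.77 to 7.93 in air to 4.24 to 6.56 at 40 ppm. Ly6d, a surface protein of early B cells and some epithelia, fell by 2.13 (± 0.434), and neither gene was called once the array axis entered the fit (Ly6d also not with the interquartile range). The other falls were of Pkdcc, a secreted kinase (-2.17 ± 0.269), Ncdn, known from neurons (-1.97 ± 0.126), Sbk1 (-1.93 ± 0.199), Krtap17-1 (3.99-fold lower) and 2410022M11Rik (-2.11 ± 0.262). Calls of the other 22 genes of both lists held with either covariate.

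**Figure D2:**
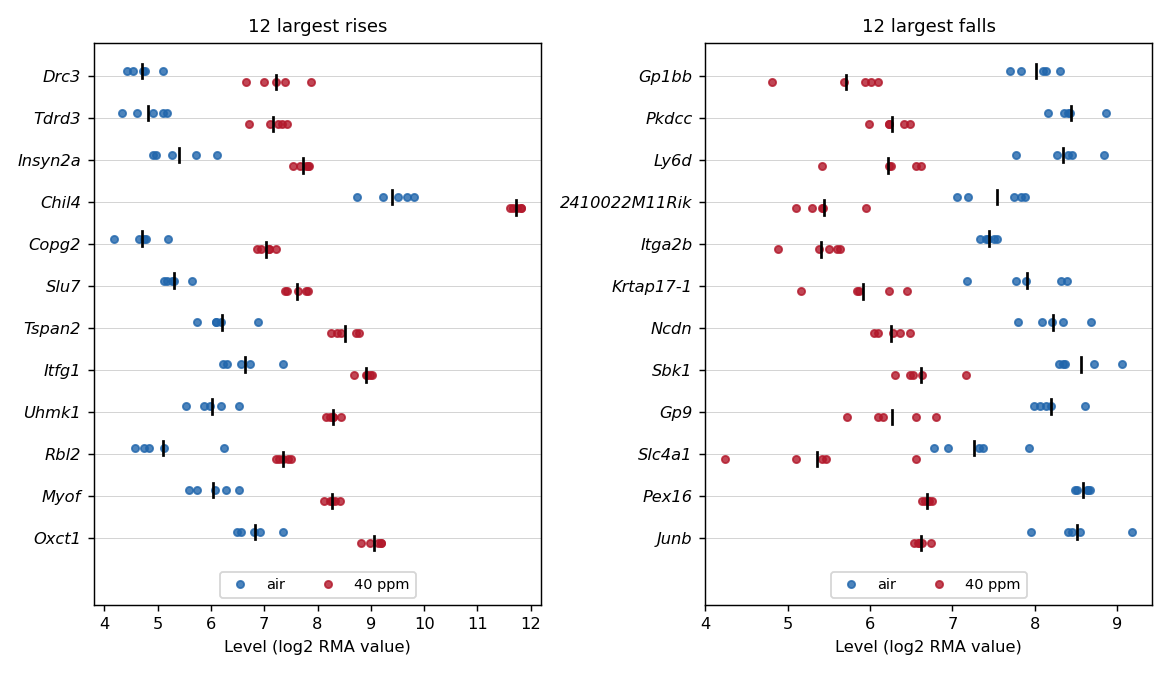
Levels in log2 RMA values of the 12 genes with the largest rises (left) and the 12 with the largest falls (right), among called genes with a higher group mean of at least 7 log2. Points are single mice, 5 in air (blue) and 5 at 40 ppm (red), and black ticks are means; in each gene the groups do not overlap, as the rule for naming them required.

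Many P450 and other phase 1 enzymes, the class that first attacks foreign chemicals, were higher at 40 ppm. Their list here also holds enzymes with other roles, such as Cyp51. Of 31 measured P450 and other phase 1 enzymes 19 rose, 3 fell and 9 did not pass, where 28.6% of all genes rose and 36.2% fell. The list's median change was 0.67. With the array axis 16 rose and 1 fell, and with equal-spread scaling 11 and 7. Ces1g, a carboxylesterase, read 4.50, 4.93, 6.02, 5.23 and 5.53 in air and 7.22, 7.23, 7.44, 7.31 and 6.79 at 40 ppm (1.96 ± 0.309, and close paralogs may share its signal). Aox3, an aldehyde oxidase, rose by 1.87 ± 0.209, Cyp51, which makes sterols, by 1.85 ± 0.215, and the P450 gene Cyp2j6 by 1.84 ± 0.169. Cyp2f2, the club cell P450 that oxidises styrene in mice, read 13.14, 12.95, 13.06, 13.10 and 13.07 in air and 13.07, 13.02, 13.04, 13.14 and 12.98 at 40 ppm. These mice overlapped (-0.01 ± 0.061, limma adjusted p = 0.838), and the sign turned under 6 other settings. Under equal-spread scaling Cyp2f2 was called lower (-1.06, limma adjusted p = 7.8e-07). Ephx1, the microsomal epoxide hydrolase that opens styrene oxide, fell from 10.54, 10.57, 10.69, 10.67 and 10.48 to 10.03, 10.13, 10.29, 10.28 and 10.15. That fall of 0.41 (± 0.096, adjusted p = 0.00035 in limma) was lost with either covariate.

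Genes of glutathione and of NRF2, the factor that switches on antioxidant enzymes, moved both ways, as did genes at large (28.6% rose, 36.2% fell). Of 31 measured, 12 rose, 9 fell and 10 did not pass, with a median of 0.13. With the array axis 10 rose and 3 fell, and with equal-spread scaling 5 rose and 16 fell, so the balance of the list turned. Nfe2l2, which encodes NRF2 itself, rose from 8.01, 7.98, 8.09, 7.80 and 8.53 to 9.94, 9.90, 9.57, 9.86 and 9.71 (3.28-fold, in 1 of 2 probe sets). Gsta4, which conjugates lipid aldehydes, rose by 1.29 ± 0.155 and Gclc, the catalytic subunit for glutathione synthesis, by 1.15 ± 0.212, a call lost with either covariate. Gstm1, a transferase with near-identical relatives, rose by 0.64 ± 0.087, but the sign turned with equal-spread scaling (-0.14). Osgin1, an oxidative stress gene, fell by 1.39 (± 0.111), from 7.87 to 8.32 in air to 6.47 to 6.74 at 40 ppm.

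Most markers of ciliated cells rose. Among the 23 measured, 15 were higher, 2 lower and 6 not called, with a median of 0.61; the array axis left 9 higher and 1 lower. Without air mouse 1 or 40 ppm mouse 5, 1 fell. The rises included Bbs5, a part of the coat that carries cargo to cilia (4.99-fold), Mlf1 (1.84 ± 0.221), Cdhr3, a cadherin of ciliated cells (1.67 ± 0.214), and Ak7, an adenylate kinase of cilia (1.61 ± 0.254). Bbs5 read 3.08, 3.57, 3.80, 3.95 and 3.71 in air and 5.74, 5.87, 5.85, 6.29 and 5.95 at 40 ppm. Its air levels lay below the medians of the air arrays (4.35 to 4.48), so the size of its fold is uncertain. Foxj1, the master regulator of motile cilia, went the other way, from 9.05, 7.93, 8.19, 8.21 and 7.84 to 7.52, 7.71, 7.62, 7.55 and 6.78. Its fall of 0.81 (± 0.312, adjusted p = 0.0241 in limma) was not called without air mouse 1, without 40 ppm mouse 5 or against 1 ppm in place of air. It was lost with the array axis, and its sign turned with the interquartile range as a covariate (0.16). The rise of Ak7 was lost with either covariate.

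Club cells gave 18 measured markers, of which 3 were higher, 2 lower and 13 not called. The 3 that rose were Gabrp, a chloride channel subunit (1.91 ± 0.277), Pon1, an esterase (1.29 ± 0.189), and Aldh1a1, a retinaldehyde dehydrogenase (1.03 ± 0.135), whose call was lost with equal-spread scaling. Gabrp read 6.54, 5.92, 7.41, 7.12 and 7.67 in air and 8.60, 9.01, 8.73, 9.27 and 8.62 at 40 ppm. Without air mouse 5, 5 club cell markers rose, and equal-spread scaling gave 2 rising and 9 falling. Among 17 genes of mucus, goblet cells and chitinase-like proteins 5 rose, 5 fell and 7 did not pass. Besides Chil4, Pigr, which carries antibodies into the airway, rose by 1.86 ± 0.318, and Retnla, a cytokine-like protein of type 2 responses, by 1.59 ± 0.335. Fcgbp, a mucus protein, fell by 1.34 (± 0.288). Without 40 ppm mouse 1 or mouse 4, 3 of the list fell. With the array axis 4 rose and 0 fell, and the call of Fcgbp was lost with either covariate, that of Retnla with the interquartile range.

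Alveolar type 1 cells are the thin cells of gas exchange, and type 2 cells make surfactant. Of 17 alveolar type 1 genes 10 rose, 6 fell and 1 did not pass, with a median of 0.42. Clic5, a chloride channel protein of the cell cortex, read 8.74, 9.22, 9.25, 9.26 and 9.53 in air and 11.01, 10.92, 10.72, 10.94 and 10.86 at 40 ppm, higher in all 4 probe sets. Cav1, the coat protein of caveolae, rose from 10.56, 10.55, 10.92, 10.83 and 11.30 to 12.26, 12.27, 12.12, 12.16 and 12.16 (1.36 ± 0.104). Lmo7 (1.26 ± 0.194) and Cav2 (1.18 ± 0.193) rose too, but both calls were lost with either covariate and Cav2 turned sign with the array axis (-0.07). Under the array axis 4 of the list rose and 2 fell, and with equal-spread scaling 5 and 9. Of 18 type 2 and surfactant genes 6 rose, 4 fell and 8 did not pass. Scd1, a fatty acid desaturase, rose by 1.24 ± 0.144, Dram1, a lysosomal membrane protein, by 1.12 ± 0.16, and Cxcl15, the lung chemokine lungkine, by 0.75 ± 0.082. Lpcat1, which remodels surfactant lipid, fell by 0.83 (± 0.087) in all 5 of its probe sets. Equal-spread scaling gave 0 rising and 13 falling, ended the calls of Scd1 and Dram1 and turned the sign of Cxcl15 (-0.19). Dram1 was also lost with either covariate, and without air mouse 5 2 type 2 genes fell.

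Interferon induces GTPases that attack the vacuoles of intracellular microbes, and most of those measured rose. Of 10 measured GTPases 8 rose, 1 fell and 1 did not pass, with a median change of 1.36. Tgtp1 read 6.55, 6.20, 6.19, 7.33 and 7.14 in air and 8.30, 8.70, 9.61, 8.92 and 8.89 at 40 ppm, a 4.6-fold rise (its near-identical copy Tgtp2 may share the probes). Irgm1 rose from 4.97, 4.84, 4.66, 4.83 and 5.39 to 6.37, 6.56, 6.94, 6.92 and 6.58, and Gbp2 from 7.34, 7.21, 7.71, 7.72 and 8.21 to 9.08, 9.02, 9.28, 9.15 and 9.14. Iigp1 rose by 1.43 ± 0.393. The other members are named here although the rule did not pick them, and their values had been seen. Gbp10 rose by 1.37 ± 0.431, Irgm2 by 1.35 ± 0.321, Gbp3 by 0.94 ± 0.328 and Igtp by 0.88 ± 0.38. The groups overlapped for Irgm2 and Igtp. Gbp4 fell by 0.67 (± 0.118) and Gbp7 gave 0.04 ± 0.353 (adjusted p = 0.933 in limma). With either covariate 2 of the list, Tgtp1 and Irgm1, rose and 1 fell. The call of Gbp4 was lost with the array axis, under which Gbp7 was called lower (-1.72). That of Gbp3 was also lost with quantile normalization. The call of Igtp was lost with quantile normalization, equal-spread scaling, a trended prior and without any 1 of air mice 1 to 3 or 40 ppm mice 2 to 5. Mean levels were higher still at 5 ppm, at 9.85 for Tgtp1, 8.93 for Iigp1 and 9.21 for Gbp7, beside 8.88, 6.86 and 6.47 at 40 ppm.

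The promoters of these GTPases are shown because the genes are known targets of interferon factors, which bind tandem GAAA repeats. The repeat was chosen with the results of the list known. A tandem repeat, GAAANNGAAA on either strand, was searched in the 250 bases before each start in the RefSeq promoters of build GRCm38.p6. It lay in 7 of the 7 GTPases with a promoter in the table, 6 of which rose. The table listed no promoter for Iigp1, Gbp10 or Gbp4, and Gbp4 was the 1 member that fell, so the search could not include a falling member. For comparison, 3.09% of measured genes and 2.98% of all 32851 promoters held it. The 7 promoters are not independent of one another. The Igtp and Irgm2 windows are nearly the same sequence, and Tgtp1 shares most of their bases up to the end of the repeat. Gbp2, Gbp3 and Gbp7 lie close together on chromosome 3. In each 50-base window, 5′ to 3′ on the gene's strand, capitals mark the repeat, which reads TTTCNNTTTC where it lies on the other strand. Longer capitals are overlapping matches.

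Tgtp1 (chr11:48992294-48992343, minus): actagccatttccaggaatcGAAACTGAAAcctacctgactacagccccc
Irgm1 (chr11:48871421-48871470, minus): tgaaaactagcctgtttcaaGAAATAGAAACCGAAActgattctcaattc
Igtp (chr11:58199502-58199551, plus): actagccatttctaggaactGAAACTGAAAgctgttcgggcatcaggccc
Irgm2 (chr11:58214893-58214942, plus): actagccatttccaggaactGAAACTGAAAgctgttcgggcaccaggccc
Gbp2 (chr3:142620584-142620633, plus): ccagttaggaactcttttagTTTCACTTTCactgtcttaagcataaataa
Gbp3 (chr3:142559979-142560028, plus): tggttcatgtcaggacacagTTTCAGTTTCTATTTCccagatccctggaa
Gbp7 (chr3:142530263-142530312, plus): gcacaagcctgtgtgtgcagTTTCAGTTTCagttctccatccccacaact

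The repeat began 77 bases before the start in Tgtp1, 30 in Irgm1, 34 in Igtp, 64 in Irgm2, 59 in Gbp2, 45 in Gbp3 and 53 in Gbp7. Gbp7 held it and did not pass the test. A match describes these letters and shows no binding.

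Of 25 other interferon-stimulated genes 12 rose, 6 fell and 7 did not pass, with a median of 0.38, and 4 rose and 3 fell with the array axis. Ifit1, which binds foreign RNA caps, read 3.99, 4.52, 4.53, 4.43 and 5.54 in air and 6.18, 6.81, 6.46, 6.74 and 6.38 at 40 ppm. Air mouse 5 was again the highest control, and the rise of 1.91 ± 0.257 was not called with the array axis. Oasl2, an antiviral enzyme relative, rose by 1.72 ± 0.225, Parp9 by 1.61 ± 0.164 and its relative Parp14 by 1.33 ± 0.184, the last not called with either covariate. The repeat lay in 6 of the 16 genes of this list with a promoter, of which 4 rose and 1 fell. The Ifit1 window carries 2 copies.

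Ifit1 (chr19:34640765-34640814, plus): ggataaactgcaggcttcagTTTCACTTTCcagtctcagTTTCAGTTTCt

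Interferon also induces many genes of antigen presentation. Of 14 class II presentation genes 3 rose, 7 fell and 4 did not pass, with a median of -0.32. H2-DMa, which loads peptide on class II molecules, fell from 9.85, 9.50, 9.74, 9.69 and 9.48 to 8.04, 8.44, 8.75, 8.27 and 8.49, and its partner H2-DMb1 by 1.18 (± 0.164). H2-Oa, which restrains that loading, fell by 1.64 (± 0.323), a call lost with the array axis. Ctss, a protease that trims the invariant chain, rose by 1.13 ± 0.217, a call lost with equal-spread scaling and with either covariate. Of 14 class I and immunoproteasome genes 3 rose, 6 fell and 5 did not pass. The proteasome subunits Psmb9 and Psmb10 fell by 1.10 (± 0.181) and 0.97 (± 0.114). Canx, a chaperone of the endoplasmic reticulum, rose by 1.43 ± 0.162 and Erap1, which trims peptides there, by 1.42 ± 0.141. Under the array axis 1 class II gene rose and 3 fell, and 3 and 3 in class I. Psmb9 was lost with that covariate and Canx with the interquartile range.

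Alveolar macrophages live in the air spaces and clear particles and surfactant. Of 19 alveolar macrophage genes 8 rose, 4 fell and 7 did not pass. The counts were 5 and 7 under equal-spread scaling and 3 and 1 with either covariate. Pparg, the receptor that sets alveolar macrophage identity, read 4.30, 4.47, 5.01, 4.90 and 4.56 in air and 6.09, 6.37, 6.44, 6.17 and 6.27 at 40 ppm. Mrc1, the mannose receptor, rose by 1.19 ± 0.256, but turned sign with the array axis (-0.35) and was not called with the interquartile range. Cd9, a tetraspanin, rose by 1.18 ± 0.103 and Chil3 by 1.15 ± 0.156, the latter lost with either covariate. Among 20 monocyte, dendritic and interstitial macrophage genes 5 rose, 6 fell and 9 did not pass. The 3 chains of complement C1q, made by interstitial macrophages, fell together. C1qa went from 10.12, 9.09, 9.42, 9.33 and 8.67 to 8.11, 8.14, 8.18, 7.72 and 8.15, C1qb fell by 1.29 (± 0.242) and C1qc by 1.13 (± 0.228). Air mouse 1 was the highest control for all 3, and their calls were lost with either covariate. Fcgr3, an antibody receptor, rose by 1.01 ± 0.159.

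The capillary bed makes up much of the lung's cells. Of 32 endothelial genes 11 rose, 17 fell and 4 did not pass, with a median of -0.26, and all 4 that passed the 2-fold test were higher. Erg, the transcription factor that maintains endothelium, rose from 5.77, 6.42, 6.17, 6.31 and 6.90 to 8.23, 8.29, 7.79, 8.02 and 8.21. Jag1, a Notch ligand, rose by 1.79 ± 0.183, Tek, the angiopoietin receptor, by 1.76 ± 0.161 and Emcn, a surface mucin, by 1.75 ± 0.157. Pecam1, a junction protein, read 8.06, 9.25, 9.14, 9.29 and 9.85 in air and 10.54, 10.55, 10.56, 10.53 and 10.58 at 40 ppm. Its exposed mice had a standard deviation of 0.02, its controls one of 0.65. Cdh5, the cadherin of the same junctions, rose by 0.47 ± 0.109 in 1 of 2 probe sets, a change that was lost with either covariate and turned sign with equal-spread scaling (-0.25). The call of Erg was lost with the interquartile range. Under the array axis 5 of the list rose and 9 fell.

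Of 17 platelet and megakaryocyte genes 10 fell, 3 rose and 4 did not pass, with a median of -0.65. Their 3 changes past 2-fold were all falls. The mean level over the list ran from 6.47 to 6.83 in air and from 5.75 to 6.31 at 40 ppm, so every exposed mouse lay below every control. This was not particular to platelet genes. Means of the immediate early list did the same (7.89 to 8.27 in air, 7.49 to 7.77 at 40 ppm). Other lists were separated upward, such as cytosolic ribosomal proteins (12.18 to 12.31 in air, 12.35 to 12.45 at 40 ppm). Besides Gp1bb, Itga2b and Gp9, Nrgn, a calmodulin-binding protein of platelets, fell by 1.47 (± 0.222). Pf4, the chemokine of platelet granules, fell from 9.33, 9.23, 9.94, 9.65 and 9.27 to 8.34, 8.50, 8.93, 8.73 and 8.67, a call lost with the interquartile range. Under the array axis 8 of the list fell and 0 rose. Of 16 red cell genes 8 fell, 3 rose and 5 did not pass, and 5 fell without 40 ppm mouse 2. Alas2, the first enzyme of heme synthesis in red cells, fell by 1.05 (± 0.189) and the erythropoietin receptor gene Epor fell by 1.17 (± 0.206). Car2, a carbonic anhydrase, rose by 1.08 ± 0.16 and Tmod1, an actin cap, by 1.07 ± 0.168, and both are also made outside red cells. Under the array axis 2 of the list rose and 0 fell, and the calls of Alas2, Epor and Tmod1 were among those lost. The mice were exsanguinated, and the blood left in each lung was not measured.

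Matrix genes moved in both directions, as did genes at large (28.6% rose, 36.2% fell). Of 34 genes of matrix and elastic fibre 14 rose, 13 fell and 7 did not pass. The counts became 10 and 4 under the array axis and 8 and 17 under equal-spread scaling. Dcn, a proteoglycan that coats collagen, read 8.30, 7.21, 8.40, 8.59 and 8.64 in air and 10.53, 9.66, 10.43, 10.23 and 9.85 at 40 ppm. Fn1, fibronectin, rose by 1.39 ± 0.139 and Ltbp1, which holds latent TGF-beta, by 1.37 ± 0.153. Other members fell. Eln, elastin, went from 10.61, 10.11, 9.61, 9.91 and 9.99 to 8.85, 9.15, 9.38, 8.92 and 8.86, Emilin1, its coat protein, fell by 1.55 (± 0.136) and Loxl1, which cross-links it, by 0.99 (± 0.131). Col1a1, a chain of type I collagen, fell by 0.72 (± 0.193) with overlap between the groups, turned sign with the array axis (0.17) and was not called with the interquartile range. The call of Eln was lost with either covariate. Mrc2, a collagen uptake receptor, fell by 0.87 (± 0.119).

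Of 22 fibroblast genes 11 rose, 5 fell and 6 did not pass. Npnt, an integrin ligand of the alveolar wall, rose from 8.76, 9.70, 9.43, 9.83 and 9.94 to 11.46, 11.42, 11.15, 11.35 and 11.48, in 4 of 5 probe sets. Dpt, a matrix protein, rose by 1.53 ± 0.134, Slit2, a guidance ligand, by 1.63 ± 0.212 and Meox2, a homeobox factor, by 1.19 ± 0.174. Slit2 was lost with either covariate and Meox2 with the interquartile range. Fewer members fell without single mice, 2 without air mouse 1 and 3 without air mouse 2 or 40 ppm mouse 4 or 5, and equal-spread scaling gave 9 rising and 11 falling. Of 17 smooth muscle and pericyte genes 6 rose, 6 fell and 5 did not pass. Myh11, smooth muscle myosin, rose by 1.69 ± 0.231 with 1 of its 2 probe sets higher and 1 lower. Cnn1, calponin, fell from 10.07, 8.33, 8.38, 8.50 and 8.38 to 7.56, 7.14, 7.90, 7.84 and 6.55, with air mouse 1 far above the other controls. Notch3, a receptor of vessel wall cells, fell by 1.15 (± 0.132), and Rgs5, a pericyte marker, rose by 1.14 ± 0.261 in 1 of 4 probe sets. Cnn1 and Rgs5 were lost with either covariate.

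Immediate early genes answer stress and growth signals first. Of 29 measured 15 fell, 3 rose and 11 did not pass, with a median of -0.50, and 7 fell and 2 rose with the array axis. Ier2 fell from 10.67, 10.16, 9.82, 9.86 and 9.84 to 8.73, 8.86, 8.80, 8.50 and 8.85, and Ccn1, a matrix signalling protein, by 1.29 (± 0.218). Klf6, a zinc finger factor, rose by 1.19 ± 0.136 in all 3 probe sets. Of 19 glucocorticoid-responsive genes 3 rose, 6 fell and 10 did not pass. Cebpb and Cebpd, transcription factors of the acute response, fell by 0.96 (± 0.141) and 0.98 (± 0.234), and Sult1a1, a sulfotransferase, rose by 1.92 ± 0.261. Cebpd was lost with either covariate. Without 40 ppm mouse 4, 5 of the list rose and 4 fell, and without air mouse 5, 5 rose and 6 fell.

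Clock genes, which set the daily rhythm of the lung, were called in both directions, as were genes at large (28.6% rose, 36.2% fell). Of 21, 9 rose, 7 fell and 5 did not pass, and 0 rose and 0 fell with either covariate. Nr1d2, a repressor of the clock, read 6.32, 6.73, 7.47, 7.74 and 7.93 in air and 8.98, 8.72, 8.13, 9.67 and 9.42 at 40 ppm. Its rise of 1.74 ± 0.425 turned sign with the array axis (-0.16) and with the interquartile range (-0.06). Per1 went from 8.84, 8.99, 8.98, 8.97 and 8.70 to 8.34, 8.40, 8.29, 6.82 and 6.74, so that exposed mice 4 and 5 stood apart from mice 1 to 3. Per2 rose by 1.20 ± 0.26 and was lower in mice 4 and 5 (6.61 and 6.74) than in mice 1 to 3 (7.27, 7.27 and 7.09). Cebpd, which glucocorticoids induce, divided the same mice, with 8.78 and 8.83 against 9.88, 9.74 and 9.90. Cdkn1a, another glucocorticoid-responsive gene described below, parted them otherwise, with mouse 1 low beside mice 4 and 5. The split was noticed with the values seen, and the list members that show it were not counted. Rora, a nuclear receptor of the clock, rose by 1.87 ± 0.236 with 2 of 5 probe sets higher and 1 lower. The labels give no time of killing for single mice, and equal-spread scaling gave 5 rising and 10 falling.

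Of 30 p53 targets and DNA damage genes 13 rose, 8 fell and 9 did not pass. Msh6, which recognises mismatched bases, rose from 4.05, 4.19, 4.22, 3.77 and 4.36 to 6.74, 6.71, 6.67, 6.52 and 6.30 (5.53-fold). Its air levels lay near or below the medians of the air arrays (4.35 to 4.48), so the size of that fold is uncertain. Pmaip1, a death-promoting p53 target, rose by 1.97 ± 0.258, a call lost with the interquartile range, and Mdm2, which degrades p53, by 1.75 ± 0.119. Phlda3, a p53 target and inhibitor of AKT, fell from 9.83, 9.70, 9.47, 9.32 and 9.38 to 7.91, 7.93, 8.17, 7.98 and 7.84. Cdkn1a, the p21 cell cycle inhibitor, read 9.87, 10.22, 9.51, 9.75 and 9.95 in air and 8.88, 10.05, 10.01, 8.20 and 8.22 at 40 ppm. Its mice overlapped, and its fall of 0.79 (± 0.309, adjusted p = 0.0263 in limma) was lost without air mouse 2 or 40 ppm mouse 1, 4 or 5, with either covariate and when the 2 groups were fitted alone. Of 35 mitosis and proliferation genes 9 rose, 10 fell and 16 did not pass. Members of the replication helicase parted, with Mcm4 higher by 2.01 ± 0.162 and Mcm2 lower (-1.58 ± 0.162). Tyms, which makes thymidylate, rose by 1.07 ± 0.111 in 1 of 5 probe sets, but gave 0.08 with their mean (limma adjusted p = 0.31). Nek2, a mitotic kinase, rose by 1.07 ± 0.199 with 1 probe set higher and 1 lower, and was not called with the interquartile range as a covariate.

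Of 25 chaperones and genes of the unfolded protein response 14 rose, 4 fell and 7 did not pass, with a median of 0.59, but 5 rose and 9 fell with equal-spread scaling and 5 and 3 with the array axis. Dnaja1, Hspa4 and Hsph1 are cytosolic partners of heat shock protein folding. Dnaja1 read 8.89, 8.96, 7.98, 7.93 and 8.29 in air and 11.25, 10.86, 10.59, 10.42 and 9.52 at 40 ppm, Hspa4 rose by 1.72 ± 0.16 and Hsph1 by 1.64 ± 0.332. Exposed mouse 5 was the lowest of its group for Dnaja1 and Hsph1. Chac1, which degrades glutathione when protein folding fails in the endoplasmic reticulum, fell by 1.77 (± 0.183). Dnaja1 was lost with the array axis and Hsph1 with either covariate.

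Sterol and lipid synthesis supply membranes and surfactant. Of 22 genes of cholesterol and fatty acid synthesis 13 rose, 6 fell and 3 did not pass, with a median of 0.82, and 10 rose and 1 fell with the array axis. With Cyp51, Stard4, a sterol carrier, rose by 1.68 ± 0.151, Idi1, an isomerase of the isoprenoid path, by 1.63 ± 0.229 and Sc5d, a late sterol desaturase, by 1.54 ± 0.172. Idi1 was lost with either covariate. Of 24 fatty acid oxidation genes 11 rose, 6 fell and 7 did not pass. These counts were 10 and 2 with the array axis and 8 and 11 with equal-spread scaling. Hsdl2, a peroxisomal dehydrogenase relative, rose 5.04-fold. Its levels in air were low (4.35 to 4.52, and 4.99 in mouse 5), near the medians of the air arrays (4.35 to 4.48). Acadm, the medium-chain dehydrogenase, read 8.05, 8.33, 8.18, 8.18 and 8.65 in air and 10.22, 9.94, 10.03, 9.91 and 10.01 at 40 ppm. Etfa and Etfdh, which pass electrons from that reaction to the respiratory chain, rose by 1.75 ± 0.139 and 1.87 ± 0.19. Of 36 respiratory chain subunits 15 rose, 14 fell and 7 did not pass. Those counts were 18 and 6 with the array axis and 6 and 22 with equal-spread scaling. Ndufs1, the largest subunit of complex I, rose by 2.05 ± 0.127, Sdha of complex II by 1.65 ± 0.126, Ndufs4 by 1.60 ± 0.11 and Uqcrc2 of complex III by 1.51 ± 0.149.

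Splicing factors and hnRNPs process new transcripts. Of 33 splicing factors and hnRNPs 22 rose, 4 fell and 7 did not pass, with a median of 0.76. In the array axis fit, 12 rose and 7 fell, and with equal-spread scaling 14 and 8. Besides Slu7, Clk4, a kinase of splicing factors, rose from 5.36, 5.16, 5.61, 5.36 and 5.67 to 7.81, 7.63, 7.26, 7.76 and 7.53, and Clk1, its relative, by 1.69 ± 0.278. Sf3b1, a core part of the U2 particle, rose by 1.89 ± 0.216 in all 3 probe sets. Clk1 was lost with either covariate and Sf3b1 with the interquartile range. Of 25 cytosolic ribosomal proteins 8 rose, 10 fell and 7 did not pass, and equal-spread scaling gave 3 and 20. Rpl4 read 10.15, 10.31, 10.50, 10.60 and 11.12 in air and 12.26, 12.22, 12.20, 12.21 and 12.16 at 40 ppm, and Rpl7 rose by 1.52 ± 0.098 and Rps4x by 1.28 ± 0.102. Rps6 rose by 1.00 ± 0.079 with 2 of 3 probe sets higher and 1 lower, and was lost with equal-spread scaling. Ribosomal proteins have many processed pseudogenes that may share probes.

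Lung also holds blood leukocytes and resident lymphocytes. Of 21 neutrophil genes 1 rose, 6 fell and 14 did not pass, and 3 fell without air mouse 4. Mmp9, a gelatinase, fell by 1.30 (± 0.258), Csf3r, the receptor of the growth factor for neutrophils, by 1.15 (± 0.37), and Fpr2, a formyl peptide receptor, rose by 0.58 ± 0.146. Csf3r was lost with the array axis and against 1 ppm in place of air, and Fpr2 with either covariate and with equal-spread scaling. Of 20 B cell genes 2 rose, 5 fell and 13 did not pass, and 4 rose and 4 fell without 40 ppm mouse 2. Jchain, which joins secreted antibodies, rose by 2.15 ± 0.393, a call lost with the interquartile range, whereas Cd37 and Spib, of mature B cells, fell by 1.53 (± 0.306) and 1.42 (± 0.335). Cd37 was lost with the array axis and Spib with either covariate. Of 26 T and NK cell genes 7 rose, 9 fell and 10 did not pass, but 2 to 4 rose without 40 ppm mouse 3, 4 or 5 or air mouse 1, 2 or 5. S1pr4, a lymphocyte trafficking receptor, fell from 9.31, 9.33, 8.69, 8.72 and 8.44 to 6.76, 7.08, 7.30, 7.05 and 7.28. Zap70, a kinase of the T cell receptor, fell by 1.32 (± 0.216), Cd3e by 0.79 (± 0.185), and Klrk1, an NK receptor, rose by 0.56 ± 0.18. Those last 3 calls were lost with the array axis, and those of Cd3e and Klrk1 with the interquartile range too. Of 30 chemokines and cytokines 3 rose, 8 fell and 19 did not pass, and 5 fell without 40 ppm mouse 1. Tgfb1 fell by 1.70 (± 0.161) and Csf1 by 0.73 (± 0.132), and Il18 rose by 1.07 ± 0.133 and Cxcl13 by 1.45 ± 0.44. Csf1 and Cxcl13 were lost with either covariate.

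Striated muscle genes served as a check on heart and pulmonary vein muscle in the tissue. Of 21 measured 1 rose, 2 fell and 18 did not pass. The mean level over the list ran from 5.83 to 7.71 in air and from 5.45 to 8.56 at 40 ppm, so it differed widely between mice of one group. Muscle content itself was not measured. Myh7, cardiac myosin, read 7.74, 6.88, 7.22, 7.44 and 7.43 in air and 10.48, 7.90, 8.47, 8.68 and 7.74 at 40 ppm, highest in mouse 1. Myl3, its light chain, went the other way (-0.78 ± 0.169) in 1 of 3 probe sets. Without 40 ppm mouse 5, 6 rose, without air mouse 1, 2 rose, and without air mouse 2, 4 fell. Both calls were lost with the array axis, and that of Myh7 with the interquartile range. The part of muscle content in the other results was not tested.

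**Figure D3:**
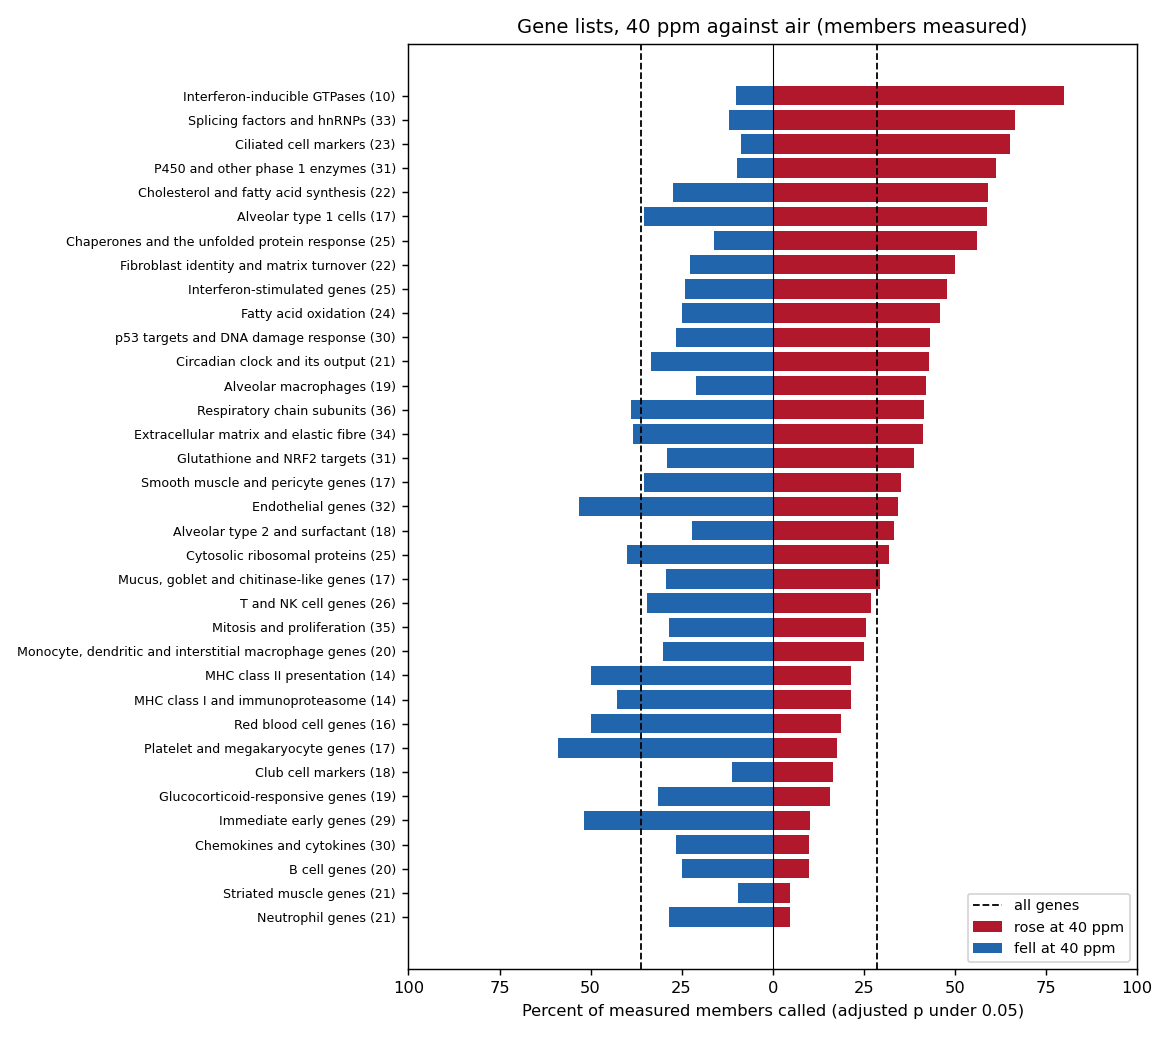
Percent of the measured members of each of 35 gene lists that rose (red, to the right) or fell (blue, to the left) at 40 ppm against air; the number measured is in parentheses. Dashed lines mark all genes, 28.6% higher and 36.2% lower. Interferon-inducible GTPases reach 80.0% rising, and platelet genes 58.8% falling.

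Rising and falling genes were also described by length. Gene length here is the span of the gene in the reference annotation, known for 17055 genes. In the 3412 genes with the shortest span, up to 6.23 kb, 10.8% rose and 50.6% fell, with a median change of -0.27. In the 3411 with the longest span, from 64.1 kb, 44.6% rose and 19.7% fell, with a median of 0.22. Across genes, which are not independent replicates, Spearman's rho between length and change was 0.31 for 40 ppm against air, 0.20 for 40 against 20 ppm and -0.09 for 40 against 120 ppm. The difference between 1 ppm and air, which uses the same controls, gave -0.11. Within lists, the median length of rising endothelial genes was 61.1 kb and of falling ones 11.6 kb. It was 31.7 and 4.51 kb in class I presentation and 25.5 and 9.84 kb among interferon-stimulated genes. Some lists went the other way, such as splicing factors (12.2 kb rising, 20.3 kb in the 4 falling) and type 2 alveolar genes (10.9 kb, and 16.8 kb in 4). Rising GTPases had a median of 10.6 kb, and the 1 that fell spanned 23.8 kb. The falling immediate early genes had a median of 3.02 kb. The part of length in any of these results was not tested.

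**Figure D4:**
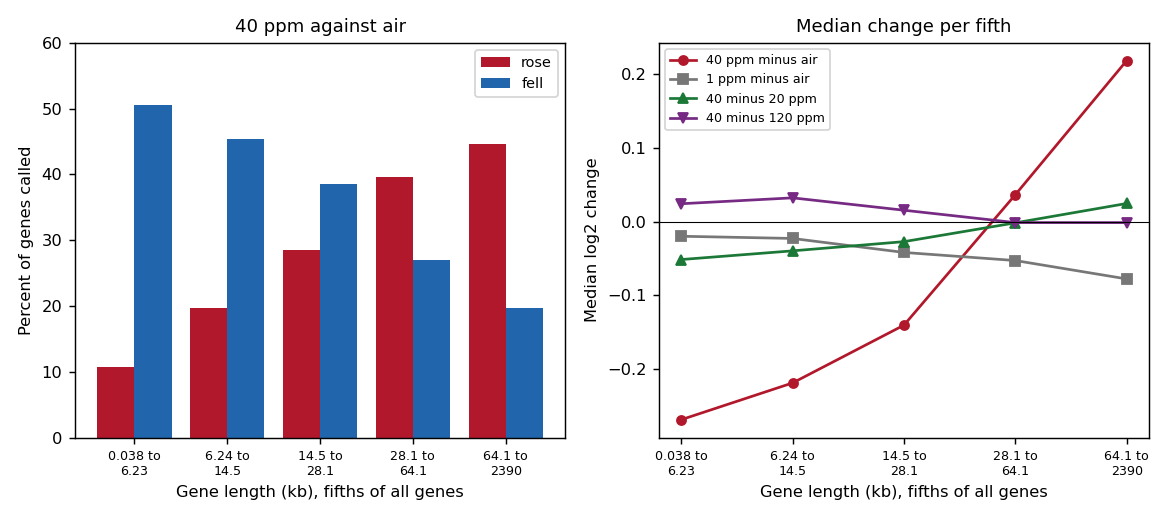
Percent of genes called higher or lower at 40 ppm against air (left) and median log2 change of 4 comparisons (right) in 5 bins of nearly equal gene number by length, in kb. The share that rose goes from 10.8% to 44.6% from the shortest to the longest bin, while the medians of 40 against 20 and 120 ppm lie between -0.05 and 0.03.

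Probe sets of one gene did not always go the same way. Among 7180 genes with more than 1 probe set, 463 (6.45%) had probe sets called in opposite directions. Of 5163 such genes that were called, 2403 (46.5%) had every probe set called in that direction.

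Against its neighbours in concentration, 40 ppm showed few differences. No gene of 17097 was called against 20 ppm in limma (0%), where 983 genes had an unadjusted p under 0.05 and the median absolute change was 0.09, beside 0.47 against air. The 95% confidence interval of the change lay within 2-fold in both directions for 98.3% of genes. This does not show that the groups were alike, but for those genes a change past 2-fold lies outside the interval. Against 120 ppm 3 genes were called (0.0175%), all higher at 40 ppm, and 1625 had an unadjusted p under 0.05. The interval lay within 2-fold for 96.5% of genes. Against the mean of 20 and 120 ppm 0 genes were called and 1016 had an unadjusted p under 0.05.

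Of the 3 genes, Eln and Loxl1 are in the matrix list and Mrc2 is not. Eln read 8.85, 9.15, 9.38, 8.92 and 8.86 at 40 ppm and 7.79, 8.66, 7.07, 7.55 and 7.59 at 120 ppm, with no overlap (1.30 ± 0.211, limma adjusted p = 0.0103). Its levels at 20 ppm, 9.03, 8.98, 9.40, 8.84 and 8.86, lay among those at 40 ppm. Mrc2 read 8.10, 7.92, 7.99, 8.04 and 7.86 at 40 ppm and 7.27, 7.70, 7.13, 6.92 and 7.36 at 120 ppm (0.71 ± 0.119, adjusted p = 0.0103 in limma). Loxl1 read 9.56, 9.62, 9.71, 9.49 and 9.54 at 40 ppm and 8.87, 9.40, 8.79, 8.55 and 8.83 at 120 ppm (0.70 ± 0.131, adjusted p = 0.0462 in limma). Mouse 2 at 120 ppm was the highest of its group for all 3, and without it 14 genes were called. Without 40 ppm mouse 1 or 4, 1 was called, and without 40 ppm mouse 3, or 120 ppm mouse 3 or 4, 0 were. The call of Eln was lost in these last 3 of the single-mouse fits (limma adjusted p = 0.0502, 0.0682 and 0.0754), and that of Mrc2 in 5. The call of Loxl1 was lost in every fit without 1 mouse except that without 120 ppm mouse 2, and with the replicate block (limma adjusted p = 0.052). It was also lost with quantile normalization (0.0558), the array axis (0.065), the mean of its probe sets (0.31), equal-spread scaling and only the groups compared fitted. The latter 3 settings ended the calls of Eln and Mrc2 too. All 3 genes had higher levels still in air. Mean levels of Mrc2 were 8.85 in air, 7.27 at 5 ppm, 7.83 at 10 ppm, 7.68 at 20 ppm and 7.98 at 40 ppm. The 40 ppm mean lay closest to air among the groups from 5 ppm up.

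**Figure D5:**
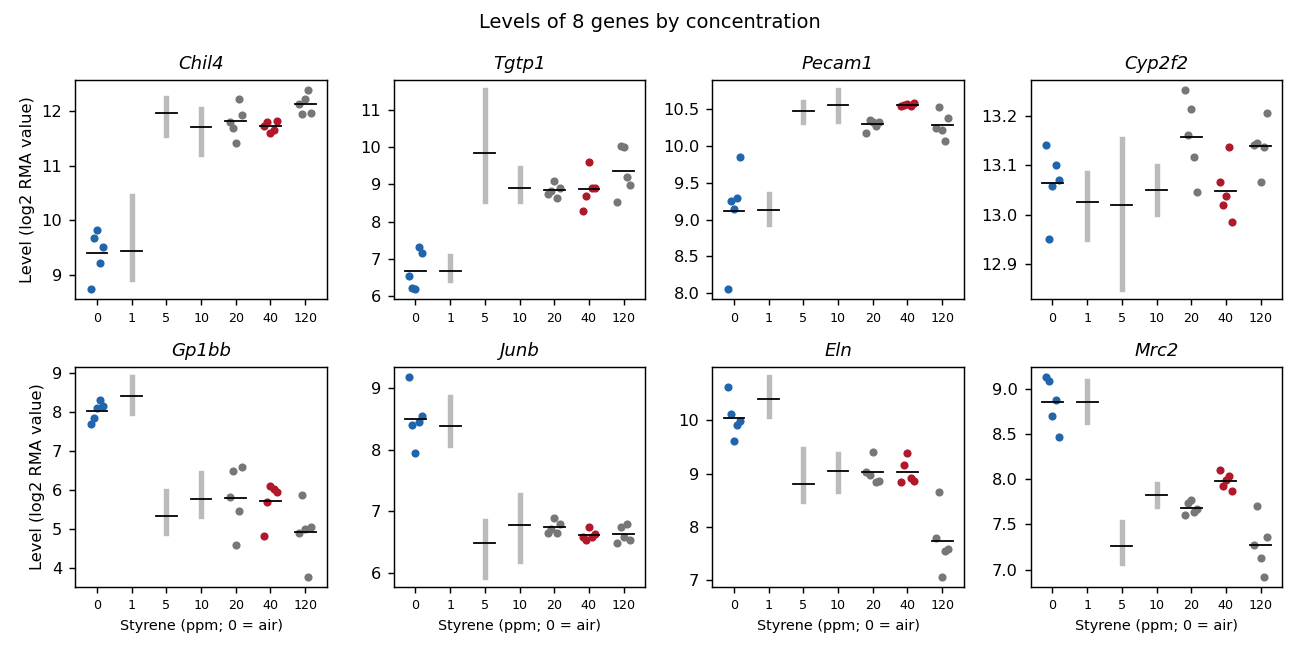
Levels in log2 RMA values of 8 genes in the 7 groups. Points are mice for air (blue), 20 ppm, 40 ppm (red) and 120 ppm, grey bars give the range of 5 mice at 1, 5 and 10 ppm, and black lines are means; each panel has its own axis. Eln and Mrc2 at 40 ppm lie above 120 ppm and below air, whereas Cyp2f2 overlaps in all groups.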

How the data were processed

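Whole-lung RNA of 35 mice was measured on Affymetrix arrays, 1 per mouse. The deposited values are log2 probe set values, and the submitters' processing notes name RMA and Partek with no version or role. RMA commonly removes background, sets arrays to one distribution and combines probes, which narrows differences among very dim and very bright probe sets. The deposited arrays did not share one distribution, however. Their interquartile ranges ran from 3.32 to 3.45 log2 at 40 ppm and from 2.94 to 3.16 in air. The cause of this difference was not tested. Symbols came from the platform annotation, checked by Entrez identifier against RefSeq (GRCm38.p6), which matched 28689 probe sets. Of 45037 probe sets, 28898 had 1 symbol, and 551 with several and 15588 with none were left out. Arrays carry no read depth, so precision rests on their number.

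A mean for each of 7 groups was fitted with limma 3.58.1 in R 4.3.3 (28 residual degrees of freedom), with eBayes, treat at a log2 threshold of 1 and Benjamini-Hochberg adjustment over 17097 genes. Samples were grouped by their titles. The script was tested on simulated data. Each p-value reflects variation among single mice. Mouse numbers did not pair mice across groups, with same-number correlations from -0.156 to 0.175. Named genes were the 12 largest rises and falls among called genes with non-overlapping groups and a higher-group mean of at least 7 log2, up to 4 such members of each list by size of change (here without the level limit), the 5 largest each way against 20 ppm, 120 ppm and their mean, and a set of fixed names. Not all 187 genes that qualified are described. The comparison and the 35 lists (790 genes measured) were chosen with earlier results of these data known, so no list is independent evidence. Alternatives were averaging the probe sets of each gene, quantile normalization, equal-spread scaling, leaving out dim genes, a replicate block, a trended and robust prior, both array covariates, fitting only the groups compared, a threshold of 0.01, 1 ppm in place of air and leaving out each mouse. The use of 10 ppm in place of 20 ppm was added after seeing the data.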

Additional observations from a re-analysis of the deposited data

Results flagged for a closer look

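In 16 of 350 groups of 5 examined, covering the named genes and the array measures, 1 mouse lay far from the other 4 by Dixon's test at its 95% critical value (0.71). Chance picks out about 1 group in 20, and 4.57% were found here.

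In air, mouse 5 was the outlying mouse in 5 genes. It was highest for Hsdl2 (4.99, others 4.35 to 4.52), Mdm2 (6.24, others 5.67 to 5.83), Parp9 (6.70, others 5.86 to 6.03) and Sf3b1 (8.49, others 7.65 to 7.84), and lowest for Csf1 (8.25, others 8.43 to 8.47). Air mouse 2 was lowest for Cdhr3 (4.53, others 5.31 to 5.60), Dcn (7.21, others 8.30 to 8.64) and Mmp9 (6.39, others 7.29 to 7.46). Air mouse 1 was highest for Cnn1 (10.07, others 8.33 to 8.50).

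At 40 ppm, mouse 4 was the outlying mouse in 5 genes. It was lowest for the C1q chains C1qa (7.72, others 8.11 to 8.18), C1qb (6.85, others 7.31 to 7.44) and C1qc (7.26, others 7.53 to 7.63) and for Ndufs4 (7.92, others up to 8.02), and highest for Ak7 (8.27, others 7.29 to 7.52). Mouse 5 was lowest for Foxj1 (6.78, others 7.52 to 7.71) and highest for Il18 (8.77, others 8.27 to 8.37).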

How the results depend on the processing

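For 40 ppm against air, 11079 genes were called. Leaving out dim genes, which left 8549 to test, gave 7276, the array axis as a covariate 5352 and the interquartile range as a covariate 4830, and leaving out single mice gave 10469 to 11246. The share of higher genes among those called was 44.2%, against 36.1% under equal-spread scaling and 54.6% without dim genes. For changes past 2-fold (1183), averaging probe sets gave 768, equal-spread scaling 2096, the array axis 3, the interquartile range 0, 1 ppm in place of air 1845, a threshold of 0.01 727, and leaving out single mice 771 (air mouse 1) to 1651 (air mouse 5).

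Against 120 ppm (3), the mean of probe sets, equal-spread scaling, fitting only the groups compared and a threshold of 0.01 each gave 0. Leaving out dim genes gave 9, a trended prior 5, and leaving out single mice 0 to 14. Against 20 ppm every setting gave 0, as did 10 ppm in its place, an alternative chosen after seeing the data. Against the mean of 20 and 120 ppm, leaving out single mice gave 0 to 1.

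The mouse numbers did not pair the mice: 1 of 5 numbers correlated best with itself. With the replicate number as a block 11097 genes were called against air, 1219 past 2-fold, 0 against 20 ppm, 4 against 120 ppm and 0 against their mean, and no named call against air was lost.

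The direction of these genes turned. With the array axis the changes were -0.072 for Cav2, 0.17 for Col1a1, 0.049 for Cyp2f2, -1.72 for Gbp7, -0.35 for Mrc1, -0.16 for Nr1d2, -0.0086 for Scgb1a1 and -0.0083 for Sftpc. With the interquartile range they were 0.16 for Cyp2f2, 0.16 for Foxj1, -1.32 for Gbp7, -0.062 for Nr1d2 and -0.0077 for Sftpc. Equal-spread scaling gave -0.25 for Cdh5, -0.19 for Cxcl15, -0.24 for Gbp7, -0.14 for Gstm1, -1.03 for Scgb1a1 and -1.11 for Sftpc. Quantile normalization gave 0.045 for Cyp2f2, -0.22 for Gbp7 and -0.017 for Sftpc. Cyp2f2 turned to 0.0011 without 40 ppm mouse 5, 0.0044 without air mouse 1 and 0.023 with 1 ppm in place of air, and ran from -0.043 to 0.0044 when single mice were left out. Gbp7 turned to -0.12 without 40 ppm mouse 4 and -0.11 without air mouse 4, and ran from -0.12 to 0.21 when single mice were left out. Of 167 named calls 53 were lost without a turn of sign with the array axis and 53 with the interquartile range. A further 4 and 2 turned sign and were no longer called. The cause of these shifts was not tested. Both covariates are extrapolated between groups that share no range of them, and 5 mice a group limit precision.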
